A study of Mus musculus with 10 samples.

Results

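The cholesterol and fatty acid synthesis genes of E11.5 mouse embryos were 31 genes, listed by symbol as targets and regulators of the sterol regulatory element-binding proteins (SREBPs), and all 31 were found among the 24302 genes of the deposited tables. RNA was sequenced from whole C57BL/6 embryos at embryonic day 11.5, from 3 wildtype embryos, 3 embryos labelled WWC2-/+ and 4 labelled WWC2-/-. Per the study's methods, the deletion came from a floxed *Wwc2* line crossed to a *Zp3*-Cre line. This Cre is active in growing oocytes, so the loss was not limited to a tissue and included the maternal transcript. The labels do not say whether the wildtype embryos came from mothers with the Cre. *Wwc2* encodes a scaffold protein upstream of the LATS kinases in the Hippo pathway. The value used for each gene is the authors' mean normalized count, which is the mean over all 10 embryos with the 3 genotypes pooled. Values per embryo or per genotype, their spread and the differences between the genotypes were not analysed here, and no test between genotypes is given. What follows is therefore the level of each gene in the pooled embryos, and 4 of the 10 embryos behind every value were KO embryos.

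Cells make cholesterol from acetyl-CoA through mevalonate, isoprenoids, squalene and lanosterol, and fatty acids from acetyl-CoA through malonyl-CoA. SREBPs are transcription factors held in the endoplasmic reticulum membrane. When sterols are scarce they are carried to the Golgi, cut, and released to the nucleus, where they switch on the genes of both routes, while INSIG proteins retain them in the endoplasmic reticulum when sterols are plentiful. Growing embryos need these products for new membranes, and sterol intermediates and cholesterol are also needed for Hedgehog signaling.

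The summed mean normalized counts came to 25560900 over all genes. The lowest values fall on 10 steps, the values of a gene with 1 read in 1 embryo. They gave the size factors of the 10 libraries, by which counts were divided, without saying which embryo each belongs to. All 994 genes with a mean between 0 and 0.244 were sums of 1 to 3 such steps within 1e-06. The size factors that follow from the steps ranged from 0.616 to 1.23, with the second lowest at 0.881, so 1 library stood apart with the lowest size factor. Read totals per library were not used here, so its depth was not measured. *Wwc2* itself had a mean normalized count of 2117 over the pooled genotypes, which does not check the genotype labels. Markers of embryonic red cells, endothelium, neurons and heart were present, such as *Hbb-y* with 214939 per kb of exon and *Tubb3* with 5843. Markers of adipocytes were near 0 (*Adipoq* 0.459 per kb). Liver and yolk sac markers, which belong to lipid-exporting tissues, had levels of 125.5 (*Apob*) to 7198 (*Afp*) per kb. All 4 trophoblast markers were above the median protein-coding gene (370.6 to 6589 per kb), as was *Gzmd* of uterine killer cells with 1383 per kb, although the samples are labelled as embryo, while *Prf1* of these cells was below it (87.5). The part of these tissues in the levels below was not tested, and a difference in the number of such cells could not be told apart from a difference in RNA per cell.

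All 31 genes were expressed above the median of protein-coding genes with a mean above 0. The lowest were close to it, with *Acaca* at percentile 54.5 and *Tm7sf2* at 53.1. Both fall below the median of the protein-coding genes with a mean of at least 10. To compare genes, each mean normalized count was divided by the length of the gene's exons in kb, and the result is given as the level per kb. The median level of the 31 genes was 472.4 per kb, against 101.9 per kb for 17614 protein-coding genes with a mean above 0. Of the 31 genes, 21 lay above the 75th and 10 above the 90th percentile of these genes, and their median percentile was 83.0. They held 0.367% of the summed level of all protein-coding genes, while they made up 0.176% of the genes by number. The levels spanned 44.5-fold, from 119.0 per kb for *Tm7sf2* to 5292 per kb for *Scd2*, and *Scd2* alone held 21.1% of the summed level of the 31 genes. Of the 30 pairs of neighbours in this order, 8 had overlapping 95% counting intervals (exact Poisson), which were at most 3.17% wide on either side of the value. These intervals cover counting error only, and the spread between embryos is not known from a pooled mean.

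**Figure D1:**
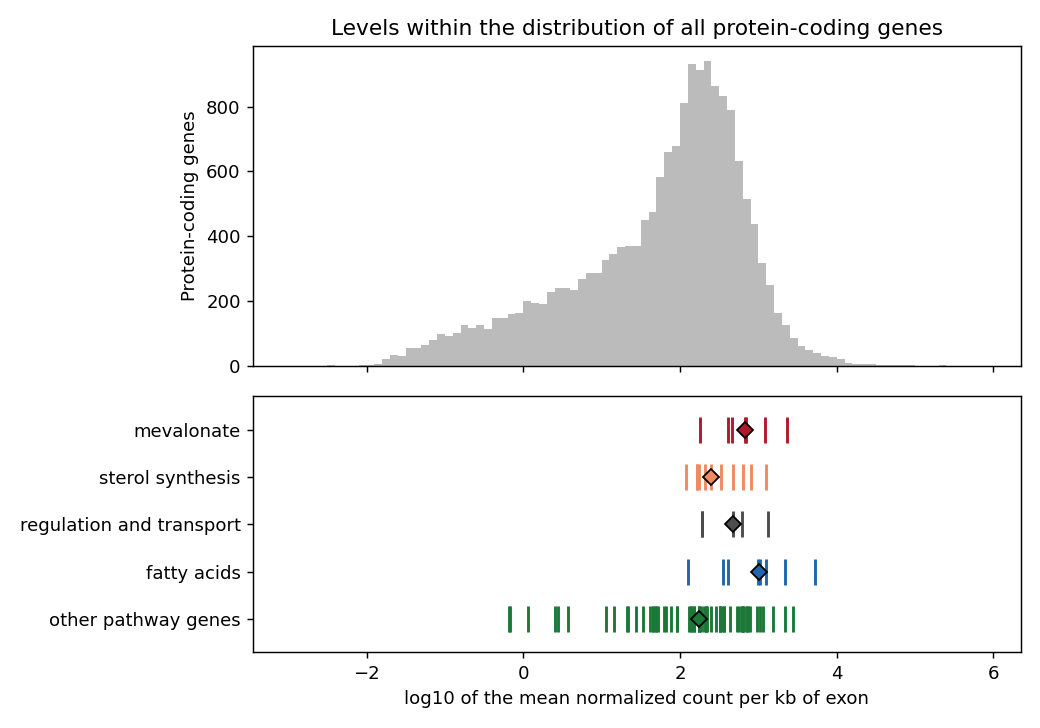
Top, number of protein-coding genes (y axis) by log10 of the mean normalized count per kb of exon (x axis), as a mean over all 10 embryos. Bottom, the same scale for the 31 genes by role and for the 61 other pathway genes, with 1 tick per gene and a diamond at the median; all 31 genes lie at 119.0 per kb or more, to the right of the median protein-coding gene at 101.9, while the other pathway genes reach down to 0.652.

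The mevalonate branch was led by its first committed steps. *Hmgcs1*, the cytosolic HMG-CoA synthase that condenses acetyl-CoA with acetoacetyl-CoA, had a mean normalized count of 10667 and a level of 2322 per kb, the second highest of the 31 genes. *Acat2*, the cytosolic thiolase that makes acetoacetyl-CoA, followed with a count of 3088 and 1214 per kb. The kinases and the decarboxylase behind mevalonate were lower and close together, with 415.3 per kb for *Mvk*, 458.8 for *Pmvk* and 673.3 for *Mvd*. *Fdps*, the farnesyl diphosphate synthase, had 689.8 per kb, and its counting interval overlapped that of *Mvd*. Per kb of coding sequence the levels differed, with 2219 for *Fdps* and 968.0 for *Mvd*. *Fdps* shares 1124 exon bases on the same strand with *Gm43738*, which is not among the genes with a value in these data. *Idi1*, which interconverts isopentenyl and dimethylallyl diphosphate, was the lowest of these 7 genes with a count of 625.8 and 178.5 per kb. The level of *Hmgcs1* was 13.0 times that of *Idi1* (95% counting interval 12.7 to 13.3), and 9.99 times per kb of coding sequence. *Idi1* remained the lowest of the 7 genes per kb of coding sequence, with 684.7 against 769.4 for *Mvk*.

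Since *Hmgcs1* was the highest sterol gene and a standard SREBP target, its promoter was searched for known elements. The RefSeq table of GRCm38.p6 gave 31 promoter windows for 24 of the 31 genes, each of 250 bases before and 50 bases after the start. The sterol regulatory element was searched as TCACNCCAC on both strands. It was found in 1 of the 24 genes, *Hmgcs1*, and in 1.44% of all 26994 genes with a window. The stretch of the *Hmgcs1* promoter that holds it is shown because it is the only match among the 31 genes' windows, 5′ to 3′ on the gene strand, with the element in capitals; it lies on the + strand of GRCm38.p6 at chr13:119690154-119690273, and the element starts 137 bases before the RefSeq start.
Hmgcs1: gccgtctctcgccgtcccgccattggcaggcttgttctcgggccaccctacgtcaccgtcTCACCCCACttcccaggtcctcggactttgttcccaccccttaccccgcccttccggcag
With 1 mismatch allowed, the element was found in 11 of the 24 genes (45.8%), in 26.7% of all genes and in 29.1% of the expressed genes. The CCAAT box (CCAAT), bound by NF-Y, was present in 20 of 24 genes (83.3%), against 41.8% of 13614 expressed protein-coding genes with a window. The GC box (GGGCGG), bound by SP1, was also present in 20 of 24 genes, against 58.7% of the expressed genes. The E-box CACGTG was found in 4 genes, *Dhcr7*, *Hsd17b7*, *Insig1* and *Sc5d* (16.7% against 10.3%). All motifs were searched on both strands, and matches of different motifs can share bases. Such matches describe the letters in these windows and are not measured binding.

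Within sterol synthesis, *Fdft1*, *Sqle* and *Cyp51* were higher than all genes that act after *Cyp51*, while *Lss* was low. Per kb of coding sequence, *Msmo1* (2358) also exceeded *Fdft1* (2147). The 11 genes of this route had a median of 248.6 per kb, the lowest of the 4 roles, and 5 of them were above the 75th percentile of protein-coding genes. *Fdft1*, the squalene synthase, had a mean normalized count of 2731 and 646.0 per kb, and *Sqle*, the squalene epoxidase, 4456 and 803.5 per kb. *Cyp51*, the lanosterol 14-alpha-demethylase, was the highest of the route with a count of 5564 and 1260 per kb. Its counting interval per kb of exon overlapped that of *Fads1*, a gene of the fatty acid branch. Per kb of coding sequence, *Cyp51* had 3687 and *Fads1* 4299.5. *Lss*, the lanosterol synthase that stands between *Sqle* and *Cyp51*, had only 166.1 per kb with a count of 1792, but its exons add up to 10.8 kb over all annotated transcripts. Per kb of coding sequence, *Lss* had 805.9, again below *Sqle* with 2597 and *Cyp51* with 3687.

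The genes after *Cyp51* spanned 119.0 to 475.2 per kb. *Tm7sf2*, a sterol C14-reductase, had the lowest level of all 31 genes, with a count of 524.0 and 119.0 per kb, and shares 532 exon bases with *Vps51* on the same strand. *Msmo1*, the C4-methyl oxidase, had 337.3 per kb, *Nsdhl*, which removes the carboxylated C4 group, 475.2, and *Hsd17b7*, the C3-ketoreductase, 175.7. These 3 enzymes act one after another in C4-demethylation. *Ebp*, the sterol isomerase, had the lowest count of the 31 genes, 384.4 (166.4 per kb), and its counting interval per kb of exon overlapped that of *Lss*. Per kb of coding sequence, *Ebp* had 557.1 and *Lss* 805.9. *Sc5d*, the lathosterol oxidase, had 207.7 per kb and *Dhcr7*, the 7-dehydrocholesterol reductase that ends one form of the route, 248.6. The level of *Dhcr7* was 2.09 times that of *Tm7sf2* (95% counting interval 2.02 to 2.16). *Nsdhl* and *Ebp* lie on the X chromosome.

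**Figure D2:**
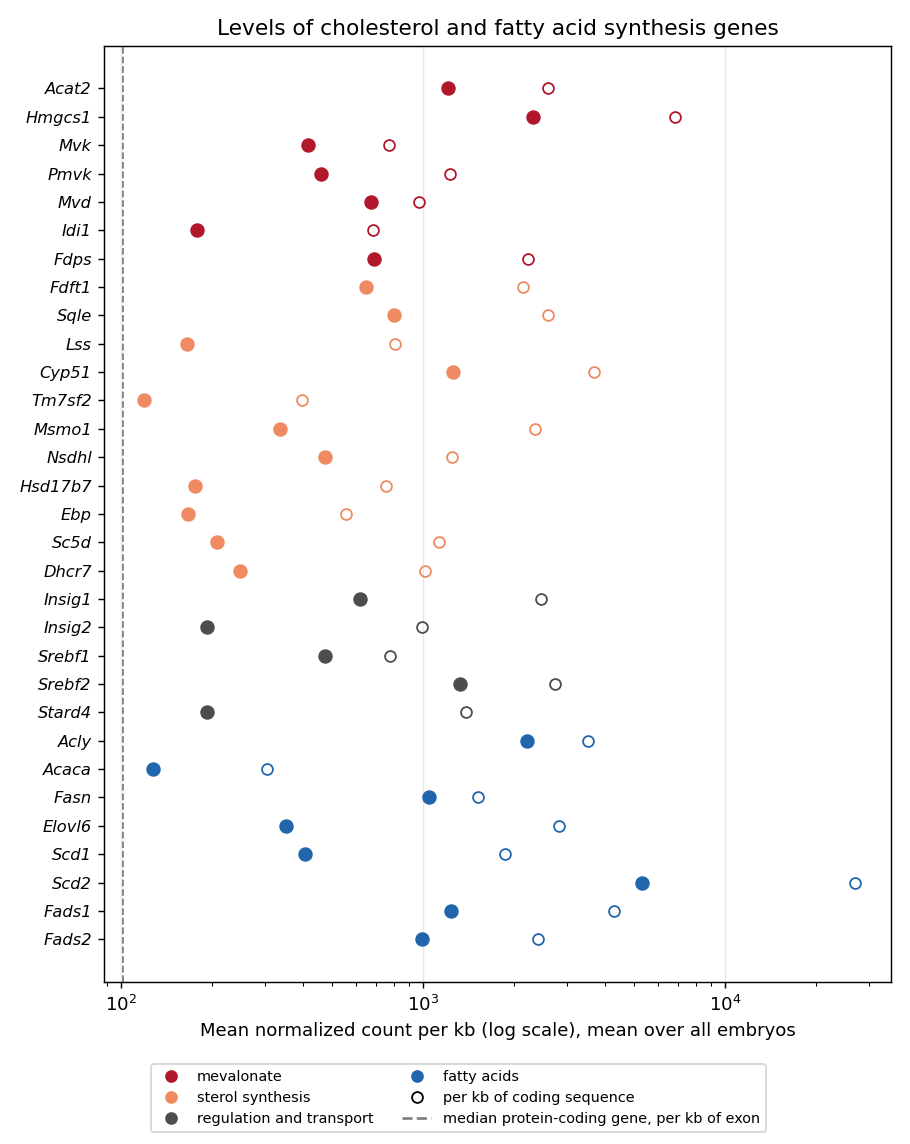
Level of each of the 31 genes (y axis, in pathway order) on a log scale (x axis), as the authors' mean normalized count over all 10 embryos per kb of exon (filled) and per kb of coding sequence (open), colored by role. Bars of the 95% counting interval are narrower than the points. *Scd2* lies farthest to the right on both scales (5292 and 26898 per kb), and every filled point lies to the right of the dashed line at 101.9 per kb, the median protein-coding gene.

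Among the regulators, *Srebf2* and *Insig1* exceeded their paralogs. *Srebf2*, which encodes the SREBP that acts mainly on cholesterol genes, had a count of 9538 and 1328 per kb, the fourth highest level of the 31 genes. *Srebf1*, whose products act mainly on fatty acid genes, had a count of 2662 and 472.4 per kb. The ratio was 2.81 (95% counting interval 2.77 to 2.85), and 3.52 per kb of coding sequence. *Insig1*, itself an SREBP target and so part of a feedback loop, had 618.3 per kb, and *Insig2* 192.5, a ratio of 3.21 (3.12 to 3.30). This ratio was 2.49 per kb of coding sequence. Per kb of exon, *Insig2* could not be separated by counting from *Stard4*, a cytosolic sterol carrier, with 192.8 per kb. Per kb of coding sequence, *Insig2* had 990.2 and *Stard4* 1386. The other parts of the machinery were measured from a list of pathway genes outside the 31. The proteases that cut SREBPs were at 623.3 (*Mbtps1*) and 90.4 per kb (*Mbtps2*). Of the liver X receptors, *Nr1h2* had 440.9 per kb and *Nr1h3* 20.9, a ratio of 21.1 (19.4 to 23.1), and *Mlxipl*, which encodes the carbohydrate-responsive factor ChREBP, had 11.4.

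The fatty acid genes held the highest levels of the 4 roles, with a median of 1022 per kb over 8 genes, and 5 of them were above the 90th percentile of protein-coding genes. *Acly*, the ATP citrate lyase that supplies cytosolic acetyl-CoA to both routes, had a count of 11707 and 2218 per kb. *Fasn*, the fatty acid synthase, had nearly the same count, 11465, but 1047 per kb because its exons are longer (10.9 against 5.28 kb), and the level of *Acly* was 2.12 times as high (2.10 to 2.13). *Acaca*, the acetyl-CoA carboxylase that makes malonyl-CoA between these steps, was far lower with a count of 2185 and 128.0 per kb, the second lowest level of all 31 genes. The level of *Fasn* was 8.18 times that of *Acaca* per kb of exon (8.07 to 8.30) and 4.99 times per kb of coding sequence. Of the 9434 windows of 80 bases, the length of 1 read, in the longest *Acaca* transcript, 46.4% also occur in the annotated copy *Gm5182*. This copy is not among the genes with a value in these data. How reads that match several genes were counted is not given in the sources used here. Dividing the whole count by the exon length scaled to the unshared share of windows gave 238.9 per kb. This assumes that no read from a shared window was counted. *Elovl6*, the elongase of palmitate, had 352.5 per kb.

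*Scd2* was the highest gene of the pathway by count and by level. Stearoyl-CoA desaturases place the double bond that turns stearate into oleate. *Scd2* (ENSMUSG00000025203, chromosome 19 of GRCm38, 44293674 to 44306864) had a mean normalized count of 28915 and 5292 per kb, at percentile 99.2 of protein-coding genes. *Scd1*, the main isoform of adult liver and fat, had a count of 1993 and 407.3 per kb, so *Scd2* was 13.0 times as high (95% counting interval 12.8 to 13.2). *Scd3* and *Scd4* were near the lower end, with 2.79 and 1.14 per kb. *Scd1* and *Scd2* lie 87.6 kb apart and are close copies in places, so the stretch that their reads cannot tell apart was sought. The longest identical run of their coding sequences is 147 bases, from position 523 to 669 of the *Scd1* and from 532 to 678 of the *Scd2* coding sequence in GENCODE M21. It is shown because no read that lies inside it can be given to either gene.
Scd1 and Scd2: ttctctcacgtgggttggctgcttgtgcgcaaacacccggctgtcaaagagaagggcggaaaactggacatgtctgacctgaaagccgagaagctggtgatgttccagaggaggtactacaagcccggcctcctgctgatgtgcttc
The windows shared with any other gene made up 3.13% of those of *Scd1* and 1.62% of those of *Scd2*, and the ratio per kb of coding sequence was 14.4.

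Both front-end desaturases of polyunsaturated fatty acids were high. *Fads1*, the delta-5 desaturase, had a count of 5976 and 1242 per kb, and *Fads2*, the delta-6 desaturase, 3282 and 996.0 per kb. *Fads1* exceeded *Fads2* by 1.25 times (1.23 to 1.26) per kb of exon and by 1.79 times per kb of coding sequence. *Fads3* had 151.5 and *Fads6* 3.69 per kb. *Fads1* and *Fads2* lie on chromosome 19, as do *Scd1*, *Scd2* and *Tm7sf2*, so 5 of the 31 genes were on that chromosome. Chromosome 11 held 4 more, *Srebf1*, *Acaca*, *Acly* and *Fasn*.

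In several families, 1 paralog held most of the signal. These paralogs were taken from the pathway list, but the families compared were chosen after the values were seen. *Idi2* had a mean normalized count of 1.51, against 625.8 for *Idi1*. *Acacb*, the carboxylase of oxidative tissues, had 21.6 per kb, and *Acaca* was 5.92 times as high per kb of exon (5.66 to 6.20). This ratio depended on the length used, with 10.9 per kb of coding sequence and 9.70 per kb of the longest transcript. The elongases were spread more evenly. *Elovl5* had 699.3 per kb, *Elovl6* 352.5, *Elovl1* 323.1, *Elovl2* 213.1 and *Elovl4* 172.6, while *Elovl7* (14.2) and *Elovl3* (2.57) were low. The mitochondrial thiolase *Acat1* had 609.6 per kb, and the cytosolic *Acat2* was 1.99 times as high (1.96 to 2.03). Per kb of coding sequence, *Acat2* was 1.44 times as high as *Acat1*. In *Acat2*, 39.6% of the windows also occur in its copy *Acat3*, which had a mean normalized count of 87.3. With the exon length scaled to the unshared windows, under the same assumption as for *Acaca*, the level of *Acat2* was 2010 per kb.

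**Figure D3:**
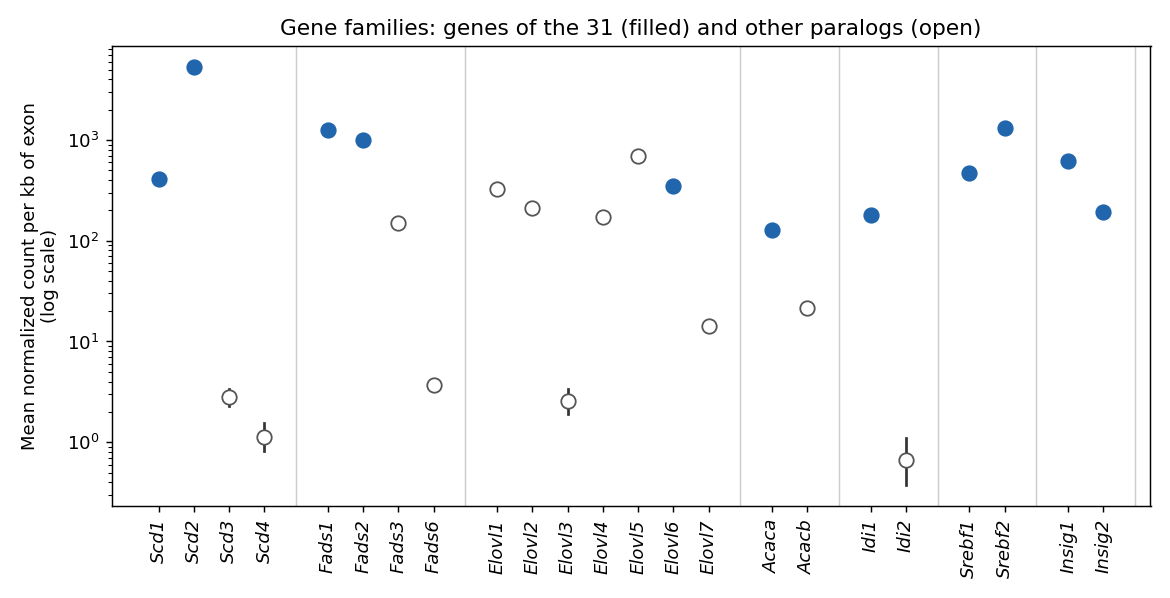
Level per kb of exon (y axis, log scale) of the members of 7 gene families (x axis), as a mean over all 10 embryos, with genes of the 31 filled, other paralogs open, and bars of the 95% counting interval. Per kb of exon, *Scd2* stands 13.0 times above *Scd1*, *Acaca* 5.92 times above *Acacb*, and *Scd3*, *Scd4*, *Elovl3* and *Idi2* lie under 3 per kb.

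The other genes of the pathway, 61 with a row in the tables, were lower and more widely spread than the 31. Their median was 176.7 per kb, and 38 of 61 were above the median protein-coding gene, against 31 of 31. In the mevalonate and isoprenoid branch, *Fnta*, a subunit of protein prenyltransferases, had 725.6 per kb. Among the low genes there were *Pdss2* (41.9), which makes the side chain of ubiquinone, and *Idi2* (0.670). Among the other sterol synthesis genes, *Tmem97* had 559.1 per kb and *Ebpl*, a paralog of *Ebp*, 27.4, which is 633.5 per kb of coding sequence against 557.1 for *Ebp*, so their order depended on the length used.

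The 15 genes that bring in, store or export cholesterol had a median of 176.7 per kb, the same as that of all 61 other pathway genes, and 3 were above the 75th percentile of protein-coding genes, *Apoe* (2171), the lysosomal sterol carrier *Npc2* (1139) and the endocytic receptor *Lrp1* (645.1). The lowest were *Stard5* (76.2), the efflux transporter *Abcg1* (49.0) and the acyltransferase *Soat2* (33.8). Of the 23 other fatty acid genes, *Tecr* (2767) and *Hsd17b12* (1044), which complete the elongation cycle, and the mitochondrial citrate carrier *Slc25a1* (958.8) were highest. *Elovl3*, *Scd4* (1.14) and *Thrsp* (0.652), a gene of lipogenic liver and fat, were lowest.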

How the data were processed

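Poly(A) RNA of whole embryos was sequenced with reads of 80 bases, from libraries that the study's methods, but not the labels, call directional. Per the labels and the study's methods, the authors trimmed reads with Trimmomatic 0.33, aligned them to mm10 with HISAT2, counted them per gene with HTSeq and fitted DESeq2; the HTSeq strand and multi-mapping settings are not given in the sources used here. The deposited signal used is the authors' mean over all 10 embryos of gene counts divided by size factors, the same in both deposited tables for all 24302 genes within 1e-06. The tables' other columns hold the authors' own comparisons with wildtype (log2 fold changes, standard errors, statistics, p-values), which were not used, so the planned tests between genotypes were not run.

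Exon lengths were the union of exons in GENCODE M21 (GRCm38). Of the table's genes, 22785 were matched by Ensembl identifier and 582 by symbol, and 2.57% of the counts had no gene model. Windows of 80 bases were compared with the annotated transcripts, since no genome sequence was used here, and promoters came from RefSeq (GRCm38.p6). Counting intervals took 10 times the mean as the number of reads, and those of ratios were exact binomial (Clopper-Pearson). All 31 genes were named, with the 3 highest and 3 lowest other pathway genes of each role, of which some are not reported here. The genes and lists were chosen with earlier results of these data known. Recovery of the size factors was tested on simulated data. Python 3.11.15, pandas 2.3.3 and scipy 1.17.1 were used. Other lengths, comparison genes, windows and motifs were tried.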

Additional observations from a re-analysis of the deposited data

How the results depend on the processing

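The count of genes above the 75th percentile of protein-coding genes (21 of 31) was 22 per kb of coding sequence and 20 per kb of the longest transcript. It was 21 with exon lengths scaled to the unshared windows, called unshared windows below. The median percentile of 83.0 became 83.4 with coding length, 81.9 without division by length, 84.8 among all genes with a mean above 0 and 79.7 among protein-coding genes with a mean of at least 10. Percentiles are lower in that last set of 14736 genes. *Tm7sf2* and *Acaca*, the lowest of the 31 genes, fall below the median of that set, because the genes left out have lower levels per kb. The share of the summed level, 0.367%, became 0.389% with coding length and 0.514% without division by length. Motif counts in the bases before the start alone were within 1.5 times those of the whole windows, and the sterol regulatory element rose from 1 to 11 genes with 1 mismatch allowed, as a looser pattern must match more. Single percentiles moved by at most 28.5 points without division by length (*Acaca*), 17.8 with coding length (*Stard4*), 14.2 with unshared windows (*Acaca*) and 9.37 with the longest transcript (*Dhcr7*). *Scd2* was the highest of the 31 genes under all 4 other scalings, whereas the lowest was *Acaca* with coding length and *Ebp* without division by length, against *Tm7sf2* with the other lengths.

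No paired analysis was possible because the value of each gene is 1 mean over all embryos. For the same reason the planned count models, the filter on low counts and the fits without single embryos were not run. At this depth counting error is small, and the unknown spread between embryos and the pooling of 3 genotypes limit what the levels show.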
